A study of Danio rerio with 36 samples.

Results

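The 10 genes described here are expressed by hepatocytes, and most of their products are secreted into the blood: fabp10a, tfa, fga, fgb, fgg, serpina1, apoa2, ambp, ttr and ahsg1. They were chosen by name as a fixed list, with earlier results of these data known. They were matched by symbol to the Ensembl identifiers of the count table, where each symbol matched 1 of the 32520 genes, so all 10 were found. The list is called secreted, but the product of fabp10a is a cytosolic fatty acid and bile acid binding protein of the liver. The question put to the data was at what level, relative to the input, this liver mRNA was found in the endothelial pulldown of the whole fish. What was seen of it in skin and in muscle is also given.

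Hepatocytes make most of the proteins of the blood plasma, among them the carriers of iron, lipid and thyroid hormone, the clotting protein fibrinogen and inhibitors of proteases. The mRNAs of these proteins are abundant in hepatocytes and are used in zebrafish, as in mammals, as markers of the liver. Vascular endothelial cells are not a main source of them, so in a tissue lysate that holds liver they report on a cell type other than the one that carries the tag.

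In translating ribosome affinity purification (TRAP), an antibody against the HA tag pulls down ribosomes with tagged Rpl10a and the mRNA on them. The fish were adults of the AngioTag line Tg(kdrl:egfp-2a-rpl10a3xHA)y530, in which the kdrl promoter drives the tagged ribosomal protein, so the tag is present wherever that promoter is active. The groups used were 3 pulldown libraries of whole fish, 3 input libraries (RNA of the total lysate) of whole fish, and 3 pulldown and 3 input libraries each of skin and of muscle, every replicate being pooled from several fish or organs and every library, the inputs included, coming from fish with the transgene. Libraries of liver, heart and brain were not used, so the whole fish lysate is the liver-containing sample of this account.

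The 18 libraries held 9202302 to 26255588 counts. The libraries of the whole fish pulldown stand apart, since 1 gene, ENSDARG00000080337, took 65.6%, 76.2% and 53.8% of their counts, against 24.2%, 27.6% and 24.0% in the whole fish input, and 15203 to 17439 genes were detected in them, against 23846 to 24314 in the input. The endothelial genes kdrl and cdh5 were enriched in the whole fish pulldown, by 3.34 (SE 0.43) and 3.90 (SE 0.39) on the log2 scale with edgeR adjusted p-values of 0.00200 and 0.000781. Under library size alone kdrl did not pass (2.51, adjusted p = 0.0566). Values are given as counts per 1000000 counts after TMM scaling within a tissue (CPM), unless library totals are named. No gene lengths were used, so the levels of different genes are not ranked against each other.

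All 10 genes were lower in each of the 3 whole fish pulldown libraries than in any of the 3 input libraries, as were 31.8% of all genes tested. In the edgeR quasi-likelihood test with calls at an adjusted p-value below 0.05 and a log2 change of 1.2 or more in size, 8 of the 10 were depleted from the pulldown and none was enriched, where 15.5% of 16923 tested genes were called depleted and 11.3% enriched. Of the 8, ttr passed the expression filter through its input libraries alone, so it could be called only as depleted. The median log2 fold change of the 10 genes was -2.88, and that of all tested genes was -0.09. At an unadjusted p-value under 0.05, all 10 were lower in the pulldown and 0 higher. The share of all genes at that unadjusted p-value is not given here. DESeq2 called 9 depleted and 0 enriched, where it called 4933 of 26926 genes depleted and 2649 enriched. Together the 10 genes took 0.203%, 0.0990% and 0.1002% of the counts of the pulldown libraries, against 3.13%, 3.42% and 1.38% in the input libraries. In bulk samples such as these, fewer cells of a type and less RNA per cell cannot be told apart between pools or tissues. Pulldown and input of a tissue are both taken from its lysate, and how liver mRNA came into the pulldown was not tested.

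**Figure D1:**
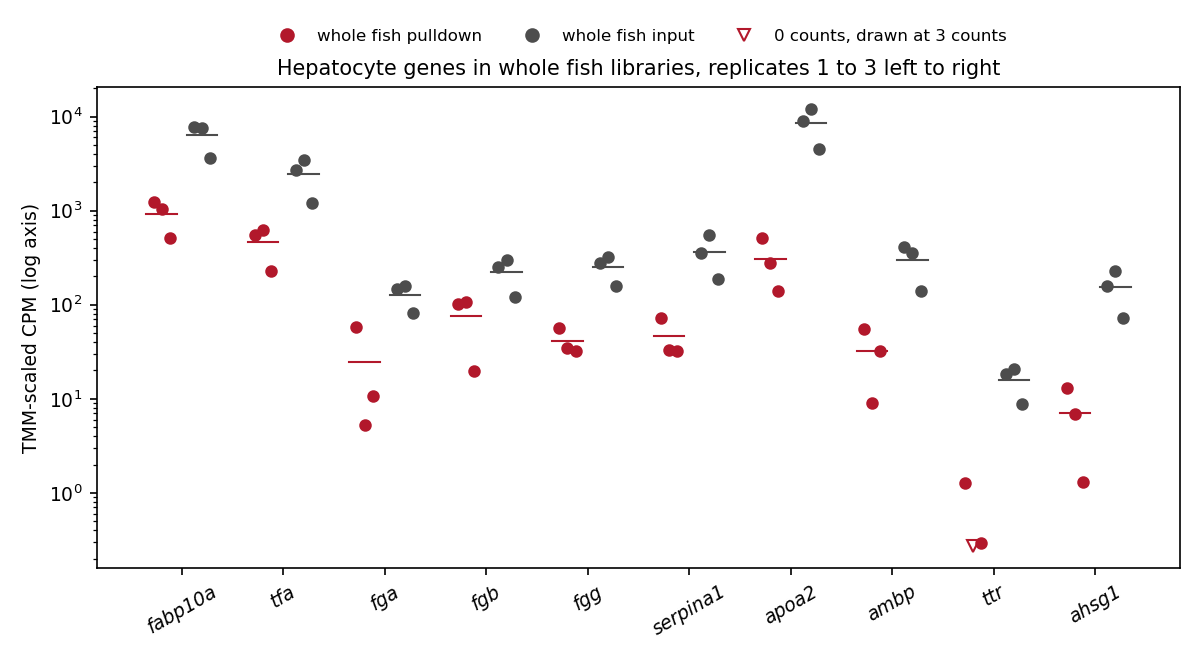
TMM-scaled CPM of the 10 genes in each whole fish library, on a log axis, with pulldown points on the left and input points on the right of each gene, and bars at the group means. For every gene the 3 pulldown points lie below the 3 input points, and ttr had 0 counts in pulldown replicate 2, drawn as an open triangle at the level of 3 counts.

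The carriers with the deepest counts were fabp10a, tfa and apoa2. The fabp10a mRNA, the usual zebrafish hepatocyte marker, was at 1244, 1031 and 511 CPM in the whole fish pulldowns, against 7821, 7523 and 3606 CPM in the inputs of replicates 1, 2 and 3. Both groups had their lowest value in replicate 3, and the pulldown stood at 15.9%, 13.7% and 14.2% of the input of the same replicate. This range was narrow under TMM scaling, but on library totals the percentages were 8.17%, 4.64% and 10.3%. Such percentages compare relative levels in 2 libraries and are not the fraction of the mRNA that was pulled down. The log2 fold change was -2.77 (SE 0.47, edgeR adjusted p = 0.0114).

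The tfa gene encodes transferrin, the iron carrier of the plasma. It was at 554, 618 and 229.7 CPM in the pulldowns, against 2698, 3421 and 1199 CPM in the inputs. The pulldown level as a percent of the input level was again close between replicates under TMM scaling, at 20.5%, 18.1% and 19.1%. On library totals it was 10.5%, 6.12% and 13.9%. The log2 fold change was -2.38 (SE 0.53, edgeR adjusted p = 0.0150).

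The apoa2 gene encodes an apolipoprotein of high density lipoprotein. Its level was 510.5, 278 and 139.7 CPM in the pulldowns, against 8997, 11968 and 4502 CPM in the inputs, so the highest pulldown value was far under the lowest input value. The pulldown level was 5.67%, 2.32% and 3.10% of the input level, less than for fabp10a or tfa in every replicate. The log2 fold change was -4.78 (SE 0.64, edgeR adjusted p = 0.0114).

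Fibrinogen is assembled in hepatocytes from the products of fga, fgb and fgg, the alpha, beta and gamma chains of the clot protein. The proportions of the 3 chains varied more between the pulldowns than between the inputs. For fga the pulldowns were at 58.3, 5.2 and 10.8 CPM, against 147, 156 and 80.8 CPM in the inputs, so pulldown replicate 1 stood well above the other two. Its log2 fold change of -2.37 (SE 0.88) did not pass, with an edgeR adjusted p-value of 0.0824, and it was called depleted with the replicate number as a block (-3.02, adjusted p = 0.0309). Without pulldown replicate 1 it also passed, at -4.01 with an adjusted p-value of 0.0139.

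For fgb the pulldowns were at 102.7, 106.6 and 19.9 CPM, against 253, 295 and 119.3 CPM in the inputs. This was the smallest fold change of the 10 genes, -1.54 (SE 0.66), and it did not pass the test without the block (edgeR adjusted p = 0.119). With the block it was called depleted, at -1.78 and an adjusted p-value of 0.0198. For fgg the pulldowns were closer together, at 56.2, 34.4 and 32.3 CPM, against 275, 321 and 156 CPM in the inputs, and the gene was depleted by a log2 fold change of -2.61 (SE 0.40, edgeR adjusted p = 0.0114).

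In the input libraries the fga to fgb ratio of counts was 0.581, 0.530 and 0.677 and the fgg to fgb ratio was 1.09, 1.09 and 1.31, so the chains held nearly the same proportions in all 3 pools of fish. In the pulldown libraries the fga to fgb ratio was 0.567, 0.0488 and 0.540, and the fgg to fgb ratio was 0.547, 0.322 and 1.62. The low value of pulldown replicate 2 rests on 57 counts of fga, against 1169 counts of fgb. These ratios need no scaling between libraries, and their spread between the pulldowns was wider than between the inputs.

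The protease inhibitors and related proteins were serpina1, ambp and ahsg1. The serpina1 gene encodes alpha-1-antitrypsin, an inhibitor of serine proteases. It was at 72.0, 33.3 and 32.6 CPM in the pulldowns, against 358, 547 and 187 CPM in the inputs, a log2 fold change of -2.99 (SE 0.53, edgeR adjusted p = 0.0114). Its close paralog serpina1l, with which it may share reads, stood at 23.8, 12.3 and 21.7 CPM in the pulldowns, against 127, 223 and 93.5 CPM in the inputs, and was depleted by a log2 fold change of -2.94 (SE 0.46). Both genes had their lowest percentage in replicate 2, where the pulldown stood at 6.09% of the input for serpina1 and at 5.53% for serpina1l.

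The ambp gene encodes the precursor of alpha-1-microglobulin and bikunin, a heme binding protein and a protease inhibitor. It was at 55.5, 8.94 and 32.0 CPM in the pulldowns, against 408, 352 and 140.1 CPM in the inputs, with pulldown replicate 2 far under the other two. The log2 fold change was -3.22 (SE 0.73, edgeR adjusted p = 0.0162). Without input replicate 2 the value was -3.12 and the adjusted p-value 0.0502, just past the threshold.

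The ahsg1 gene encodes a fetuin of the alpha-2-HS-glycoprotein kind, a plasma protein that in mammals inhibits mineral deposition. It was at 13.1, 6.93 and 1.30 CPM in the pulldowns, against 159, 228 and 72.4 CPM in the inputs, which gave a log2 fold change of -4.43 (SE 0.90, edgeR adjusted p = 0.0119). Its paralog ahsg2 stood at 11.9, 24.0 and 2.01 CPM in the pulldowns, against 52.5, 93.6 and 42.1 CPM in the inputs. At -2.31 (SE 0.84, edgeR adjusted p = 0.0771) ahsg2 did not pass without the block, and it passed with it (-2.78, adjusted p = 0.0307). The difference between the paralogs was not tested.

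The ttr gene, for the thyroid hormone carrier transthyretin, had the fewest counts of the list. There were 15, 0 and 5 counts in the pulldowns, against 450, 535 and 177 counts in the inputs. The gene thus passed the expression filter through its input libraries alone, so it could be called only as depleted. The log2 fold change was -4.92 with the widest error of the list (SE 1.32, edgeR adjusted p = 0.0293). The call was lost without any 1 of the input libraries, with adjusted p-values of 0.0803, 0.0984 and 0.0678 without input replicate 1, 2 and 3. The 0 counts of pulldown replicate 2 allow up to 1.34% of the input level of that replicate, by counting error alone.

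**Figure D2:**
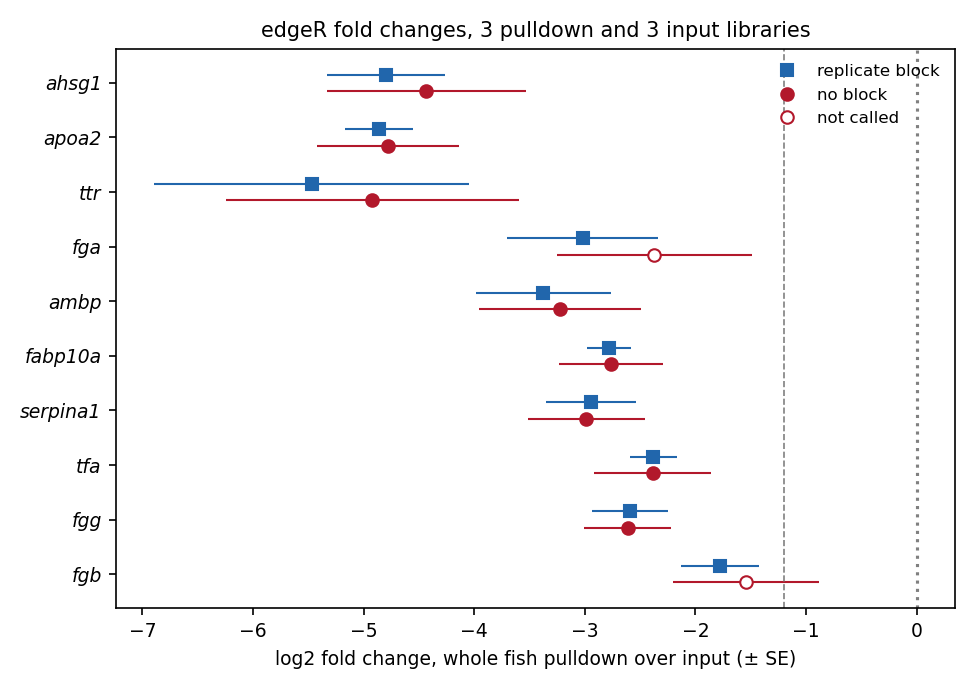
Log2 fold changes of the whole fish pulldown over input with their standard errors, from edgeR fits with the replicate number as a block (squares) and without it (circles), open where the gene was not called and with a dashed line at -1.2. With the block all 10 genes were called, and without it fga and fgb were not.

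The replicate numbers pair pulldown and input within a tissue, so the fit with the replicate number as a block bears on these calls. With it all 10 genes were called depleted, among them ttr, which could be called only as depleted, where 5.37% of all tested genes were. The median log2 fold change of the 10 genes was then -2.98, and that of all genes was -0.96. The largest adjusted p-value among the 10 genes in that edgeR fit was 0.0461, for ttr.

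The pulldown level as a percent of the input level of the same replicate, under TMM scaling, differed in its median between the genes. Ordered by the median over the 3 replicates it was 3.04% for ahsg1, 3.10% for apoa2 and 3.37% for ttr, then 13.3% for fga, 13.6% for ambp and 14.2% for fabp10a. It was 17.4% for serpina1, 19.1% for tfa, 20.4% for fgg and 36.1% for fgb. For fga the 3 replicates ran from 3.32% to 39.7% and for ambp from 2.54% to 22.8%, so that their places between the neighbours in this order do not stand beyond their spread. The highest values of apoa2 and ttr, 5.67% and 6.86%, lay under the lowest of fabp10a, 13.7%, and of tfa, 18.1%. The lowest of serpina1, 6.09%, lay under the highest of ttr and of ahsg1, 8.25%. The lowest values of fga and ambp lay under the highest of ahsg1, apoa2 and ttr. By replicate, the median of the 10 genes was 18.01%, 4.70% and 15.4% in replicates 1, 2 and 3.

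**Figure D3:**
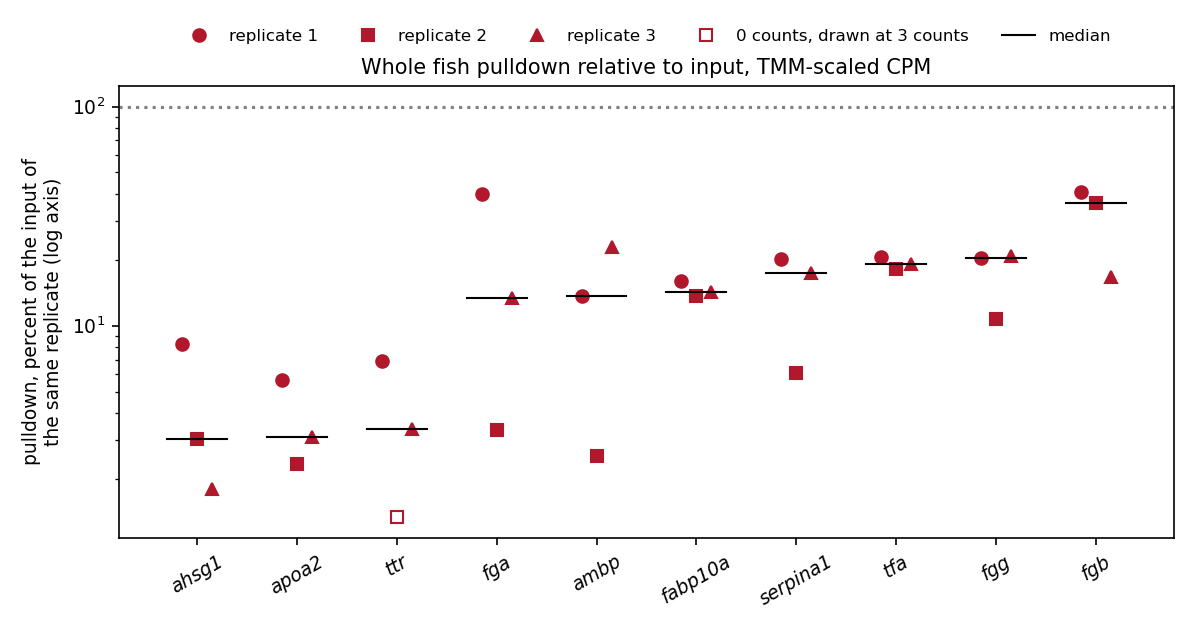
TMM-scaled CPM of the whole fish pulldown as a percent of the input of the same replicate, on a log axis, for the 10 genes ordered by their medians (bars), with a dotted line at equal levels. The medians of ahsg1, apoa2 and ttr lie between 3.04% and 3.37% and those of the other 7 genes between 13.3% and 36.1%. Single points of these sets overlap. The points within fabp10a and within tfa lie close together under TMM scaling, and are wider apart on library totals.

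Setting each gene against fabp10a in the same library removes the scaling between libraries. For apoa2 the counts were 41.0%, 27.0% and 27.3% of those of fabp10a in the pulldowns, against 115%, 159% and 125% in the inputs. The groups also did not overlap for ahsg1, at 1.05%, 0.672% and 0.254% in the pulldowns, against 2.03%, 3.03% and 2.01% in the inputs, nor for ttr, at 0.101%, 0% and 0.0578% in the pulldowns, against 0.234%, 0.272% and 0.243% in the inputs. These 3 genes were lower relative to fabp10a in every pulldown than in any input, as were 8.94% of the genes tested, while for the other 6 the groups overlapped. With 3 libraries against 3 an exact two-sided permutation test cannot give a p-value under 0.1, so this order among liver genes is a description. Of all counts of the 10 genes, apoa2 made up 19.1%, 13.1% and 13.8% in the pulldowns, against 42.6%, 48.2% and 44.7% in the inputs, and fabp10a made up 46.6%, 48.6% and 50.6% in the pulldowns, against 37.0%, 30.3% and 35.8% in the inputs.

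The whole fish input of replicate 3 held less of every gene of the list than the other two. Its levels were 36.9% to 53.3% of the mean of input replicates 1 and 2 over the 10 genes, with a median of 43.2%. The same library had the highest summed level of 10 pancreatic acinar genes among the inputs, 19961 CPM, against 13211 and 5624 CPM in input replicates 1 and 2. Its 6 enterocyte genes, at 4532 CPM summed, were the lowest of the 3 inputs, which otherwise stood at 7093 and 11804 CPM. The part of such differences between the pools in the fold changes was not tested. Without input replicate 3 the calls of fabp10a, tfa and apoa2 held and that of ttr was lost (edgeR adjusted p = 0.0678). The median log2 fold change of the 10 genes was then -3.21.

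Other genes expressed in the liver were read from lists chosen by name, also with earlier results of these data known. In them no gene was higher in the pulldown at an unadjusted one-sided edgeR p-value under 0.05. The share of all genes that was higher at that p-value is not given here. In the same fit 15.5% of all tested genes were called depleted and 11.3% enriched. Not all of these lists are particular to the liver. The other plasma protein genes summed to 2425 to 3209 CPM in the skin inputs and to 1426 to 2118 CPM in the whole fish inputs. The hepatocyte transcription factor genes summed to 170 to 215 CPM in the skin inputs and to 44.5 to 79.5 CPM in the whole fish inputs. These CPM were scaled within each tissue, so they show presence in skin and are not ranked between the tissues. The 12 apolipoproteins tested were all depleted from the whole fish pulldown, with a median log2 fold change of -3.84 and a range of -5.45 to -1.59. The largest decreases were those of apoa1b, an apolipoprotein of high density lipoprotein, with 100.1 ± 30.4 CPM in the pulldowns against 4389 ± 2115 CPM in the inputs (SD, n = 3 each; log2 fold change -5.45, edgeR adjusted p = 0.00437), and of apoa4b.1, at -5.002 (adjusted p = 0.0133). Some apolipoproteins are also made by enterocytes, and the apoa4b copies lie close in sequence and may share reads. The apolipoprotein genes also summed to 3869 to 5326 CPM in the skin inputs and to 11513 to 18026 CPM in the whole fish inputs, again scaled within each tissue. Of 15 hepatocyte enzymes tested, 11 were depleted and none enriched, with a median of -2.57. Among those with a mean of at least 100 counts the largest decrease was that of uox, the urate oxidase, at -5.63 (SE 1.42). Without 1 input library its edgeR adjusted p-value was 0.0519 to 0.0755. The uox mRNA averaged 2.17 ± 2.89 CPM in the pulldowns, and it passed the expression filter through its input libraries alone, so it could be called only as depleted. Next was hpda, an enzyme of tyrosine breakdown, at -3.95 (SE 0.47). The fah gene, at 0 counts in every pulldown and 59 at most in an input, was also called. It passed the expression filter through its input libraries alone, so it could be called only as depleted. Of the list 16 were found in the table, and cps1 had too few counts to be tested.

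The clotting and complement lists moved less evenly. Of 8 coagulation and fibrinolysis genes tested, 4 were depleted and none enriched, with a median log2 fold change of -2.61. Besides the pair given next these were serpinf2b, for the plasmin inhibitor, at -3.68 and kng1, for kininogen, at -2.72. The heparin cofactor gene serpind1 had 0 counts in all 3 pulldowns and 705 in the inputs together, which is at least 132-fold lower in the pulldown for a floor of 3 counts over the group. The factor X gene f10 had 2, 0 and 3 counts in the pulldowns, against 414, 405 and 186 in the inputs. This was 113-fold lower by pooled counts, with a 95% counting interval of 48.4 to 348. Both serpind1 and f10 passed the expression filter through their input libraries alone, so they could be called only as depleted. Where 15.5% of all tested genes were called depleted, 3 of 12 complement genes tested were depleted and none enriched, with a median of -1.16. These were cfhl4 at -2.45 (SE 0.48), c9 at -2.39 (SE 0.46) and c8a at -2.11, of which c9 and c8a encode parts of the membrane attack complex. The copies of complement C3, c3a.1, c3a.2 and c3a.3, stood at -1.04, -1.29 and 0.30 and did not pass.

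Of 12 other plasma protein genes tested, 5 were depleted and none enriched, with a median log2 fold change of -2.44. The retinol carrier gene rbp4 averaged 51.4 ± 4.50 CPM in pulldowns against 664 ± 151 CPM in inputs (SD, n = 3 each; -3.69, SE 0.29). The hp gene, which encodes the hemoglobin scavenger haptoglobin, was at -5.48 (SE 1.26), a call lost without any 1 input library (edgeR adjusted p = 0.0556 to 0.0570). It averaged 0.332 CPM in pulldowns and passed the expression filter through its input libraries alone, so it could be called only as depleted. The other depleted genes were serpina1l, shbg at -2.57 and hamp. The hamp gene had 0 counts in every pulldown and passed the expression filter through its input libraries alone, so it could be called only as depleted. The copper carrier gene cp averaged 140.5 CPM in pulldowns against 164 CPM in inputs and did not pass (-0.23). Of 6 hepatocyte transcription factor genes 1 was depleted, near the 15.5% of all tested genes, and the median was -1.87. That gene was foxa2, which had 0 counts in every pulldown and 38 at most in an input, so it passed the expression filter through its input libraries alone. Of 7 vitellogenins 1 had enough counts to be tested, vtg5, which stood at 0.77 (SE 2.00) and did not pass, and no more than 187 counts were found for any of them in any whole fish library. Apart from the vitellogenins, the medians of these lists of genes expressed in the liver ran from -3.84 to -1.16, and that of the 10 genes, -2.88, lay inside this range.

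**Figure D4:**
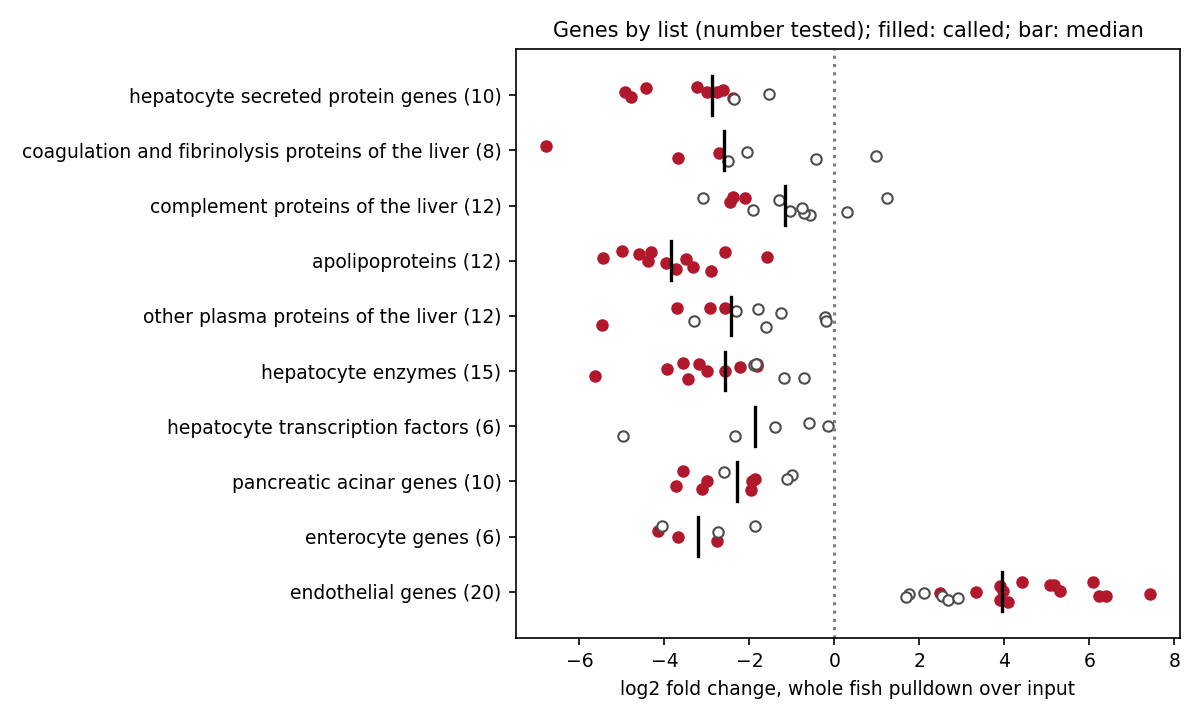
Log2 fold changes of the whole fish pulldown over input for the tested genes of each list (number in brackets), filled where called, with bars at the medians. The lists of liver, acinar and enterocyte genes have medians of -3.84 to -1.16 (the vitellogenins are not drawn) and that of endothelial genes lies at 3.94, and 4 genes with 0 counts in every pulldown are left out of the points but counted in the medians.

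Markers of other cell types were read in the same fit, where 15.5% of all tested genes were depleted and 11.3% enriched. Of 20 endothelial genes tested 14 were enriched and none depleted, with a median log2 fold change of 3.94, and they summed to 1202 to 2768 CPM in pulldowns against 43.4 to 69.9 CPM in inputs. They were led by she at 7.42 (SE 0.35) and by tek, an angiopoietin receptor, at 6.40 (SE 0.78). Other parenchyma went the way of the liver genes, with 7 of 10 pancreatic acinar genes depleted (median -2.28; prss59.1 at -3.72 and cpb1 at -3.56) and 3 of 6 enterocyte genes (median -3.22; fabp2 at -4.15, chia.1 at -3.67 and vil1 at -2.77). The acinar genes summed to 1768 to 3915 CPM in pulldowns against 5624 to 19961 CPM in inputs, and the enterocyte genes to 330.2 to 618 CPM in pulldowns against 4532 to 11804 CPM in inputs.

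Of 5 skeletal muscle fibre genes 4 were depleted (ckma at -5.20, actc1b at -4.55, tpma at -4.39 and ckmb at -3.65) and myhz2, a myosin heavy chain gene, did not pass at 2.101 (edgeR adjusted p = 0.0536 for enrichment), and the 5 summed to 1322 to 1728 CPM in pulldowns against 29357 to 34193 CPM in inputs. Of 6 erythroid genes 3 were depleted, hbaa2 at -4.58, hbaa1 at -3.73 and alas2 at -3.33, and 2 were enriched, epb41b at 2.65 and rhag at 1.87, with sums of 222 to 253 CPM in pulldowns against 1554 to 2326 CPM in inputs. The edgeR call of rhag was lost with the block (1.94, adjusted p = 0.0796) and without any 1 input library or pulldown replicate 3, and that of epb41b with library size alone (1.74, adjusted p = 0.0905). Of 7 epidermal genes 4 were depleted, krt5 at -2.69, epcam at -2.63, anxa1c at -1.86 and krt4 at -1.72, and 2 were enriched, the keratin genes cyt1l at 7.24 and cyt1 at 5.89, with sums of 286 to 523 CPM in pulldowns against 1211 to 1854 CPM in inputs. In the inputs cyt1l averaged 0.154 CPM and cyt1 0.413 CPM, near the floor, against 24.4 and 24.6 CPM in the pulldowns. Both passed the expression filter through the pulldown libraries, so they could be called only as enriched. The 8 ovary and egg genes had too few counts to be tested, with a summed level of at most 1.34 CPM in any whole fish library. The part of these cell types in the values of the liver genes was not tested.

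Across the 18 libraries, the genes whose log2(CPM + 1) followed the mean profile of the 10 genes most closely, among 8609 other genes with enough counts, were c9, cbln8, hpxa, serpina7, apoa1b, apoc2, fbp1b and pla2g12b, with Pearson's r of 0.999 to 0.994. The coefficient is a description over 18 libraries of 6 groups, and the gap between whole fish and the organs sets most of it. Their log2 fold changes in the whole fish pulldown, which the choice by profile largely fixes, lay between -5.45 and -2.39.

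In skin and muscle lysates the 10 genes were close to absent. As shares of the library total they summed to 1.34 to 3.30 CPM in the skin input and 1.72 to 5.07 CPM in the muscle input, while the whole fish input held 13803 to 34177 CPM. In pooled counts the whole fish input held them 12934-fold above the skin input (95% counting interval 10732 to 15738) and 8920-fold above the muscle input (7771 to 10290). All 10 were called higher in the whole fish input than in either organ, in 1 edgeR fit of the 9 input libraries where 18.9% of all genes were called higher and 13.2% lower than in skin, and 24.6% higher and 17.1% lower than in muscle. The genes passed the filter of that fit through the whole fish libraries, so this count is given as a description. The largest edgeR adjusted p-values among the 10 were 1.59e-05 against skin and 2.05e-05 against muscle, and they have the same limit.

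The genes differed in how much was seen outside the liver-containing lysate. The fabp10a mRNA had 10 counts in the 3 skin inputs together and 56 in the 3 muscle inputs, so the whole fish input was 47882-fold above skin (95% counting interval 26036 to 99849) and 10828-fold above muscle (8339 to 14335). The apoa2 mRNA had 23 counts in the skin inputs and 62 in the muscle inputs, of which 55 were in muscle input replicate 3. The ahsg1 mRNA had 17 and 27 counts in the skin and muscle inputs, and with 11318 counts in the whole fish inputs the whole fish input was 551-fold above muscle (379 to 836). For fgg, serpina1 and fga no more than 2 counts were found in the 3 inputs of either organ. For fga and ttr there were 0 counts in the muscle inputs, so the whole fish input was at least 4084-fold higher for fga and at least 509-fold higher for ttr, with 3 counts over the group as the floor.

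**Figure D5:**
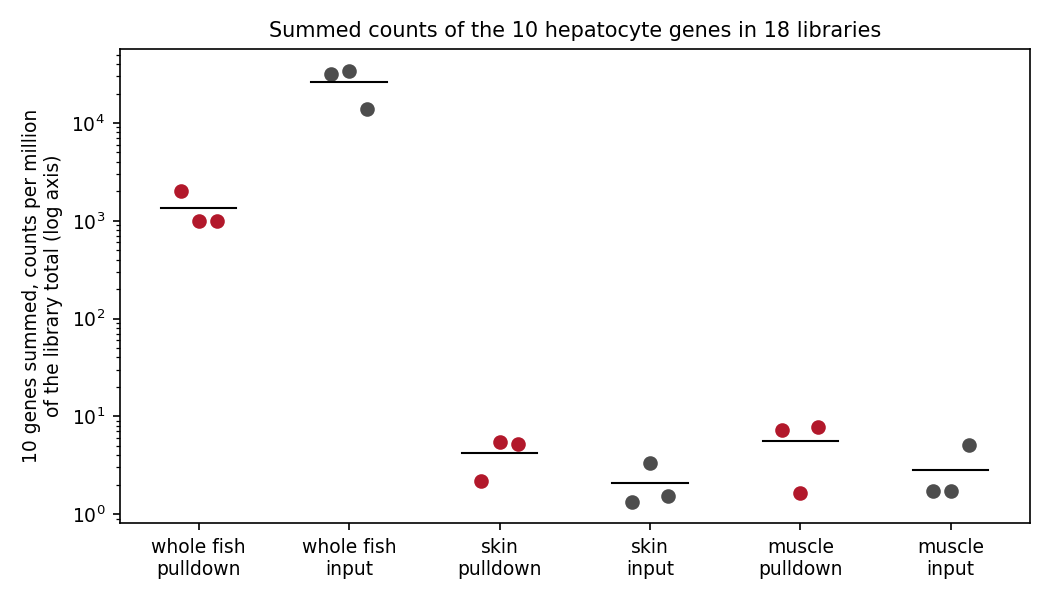
Summed CPM of the 10 genes, on library totals, in each of the 18 libraries, on a log axis, with bars at the group means. The whole fish pulldowns lie between 989.9 and 2031 CPM and the whole fish inputs between 13803 and 34177 CPM, while every skin and muscle library lies at 7.83 CPM or less.

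In the organs' own pulldowns the 10 genes summed to 2.17 to 5.40 CPM of the library total in skin, against 1.34 to 3.30 in the skin input, and to 1.63 to 7.83 in muscle, against 1.72 to 5.07 in the muscle input. The groups overlapped in both tissues. In skin only fgb had enough counts to be tested, with 12, 16 and 28 counts in the pulldowns and 4, 8 and 18 in the inputs, and at a log2 fold change of 0.98 (SE 0.55, edgeR adjusted p = 0.136 for enrichment) it was not called, where 21.5% of genes were called enriched and 18.2% depleted. It was higher at an unadjusted one-sided p-value under 0.05. DESeq2 called 0 genes of the list enriched in skin, where it called 3611 of 26972 genes enriched and 3455 depleted. The other 9 had at most 19 counts in any skin library and were below the expression filter of edgeR. Without that filter and with DESeq2 1 of them, apoa2, was called depleted in skin, on 1 count in the pulldowns together, against 23 in the inputs, 19 of which were in 1 library. Under library size alone fgb was called enriched in skin, at 1.79, a scaling under which the median of all genes in skin moved to 0.87.

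In muscle fabp10a, tfa and apoa2 were tested with edgeR and 0 were called, where 22.8% of genes were called enriched and 21.0% depleted. At an unadjusted p-value under 0.05 and with DESeq2 the number was also 0. DESeq2 called 3329 of 26237 genes enriched and 3658 depleted in muscle. For fabp10a there were 23, 16 and 54 counts in the pulldowns, against 7, 19 and 30 in the inputs, a log2 fold change of -0.35 (SE 0.70, edgeR adjusted p = 0.720 for depletion). For apoa2 there were 39, 1 and 19 counts in the pulldowns, against 2, 5 and 55 in the inputs, with no order between the groups. For tfa the log2 fold change was -0.98 (SE 0.63, edgeR adjusted p = 0.224 for depletion). Under library size alone fabp10a was called enriched in muscle, at 1.42, while the median of all genes in muscle moved to 1.79, against 0.07 with TMM, and fabp10a lay under that median in both.

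Whether the pulldown to input ratio itself differed between whole fish and organ was tested as an interaction. Most of the 10 genes entered this fit through the whole fish libraries, where they are abundant, and in skin only fgb passed the filter on its own, so the counts below are given as a description. Against skin, 3 of the 10 genes had a lower ratio in whole fish, fabp10a with a log2 difference of -4.19 (SE 0.84, edgeR adjusted p = 0.00557), fgb with -2.97 (SE 0.88, adjusted p = 0.0314) and serpina1 with -5.98 (SE 1.199, adjusted p = 0.00562), where 17.4% of all genes were called lower and 4.42% higher and the median of all genes was -0.76. The call of fgb was lost without any 1 of 6 libraries (skin input replicate 1 or 2, skin pulldown replicate 2 or 3, whole fish input replicate 1 or 2), with adjusted p-values of 0.0528 to 0.0933. In skin these rest on few counts, 20 in the pulldowns and 10 in the inputs for fabp10a, 56 and 30 for fgb, and 8 and 1 for serpina1. Against muscle DESeq2 called 1 of the 10, ttr, where it called 2953 of 28099 genes lower and 2107 higher. In edgeR 0 of the 10 passed and 3 had an unadjusted p-value under 0.05, where 12.4% of all genes were called lower and 5.26% higher. The median of all genes was -0.28 in that fit. The nearest there were ttr at -9.00 (adjusted p = 0.0542) and fabp10a at -2.58 (SE 0.90, adjusted p = 0.0676). For ttr the muscle pulldowns held 7 counts, all of them in 1 library, and the muscle inputs 0. With the block within tissue, fabp10a (-2.57, edgeR adjusted p = 0.0349) and tfa (-1.55, adjusted p = 0.0345) were called lower in whole fish than in muscle, where 6.73% of all genes were. The median of all genes with the block was -0.996, so these values are not to be read against no change. Lower ratios in whole fish were also called for the endothelial genes kdrl and cdh5. In the edgeR fits without the block the difference was -1.49 for kdrl and -1.58 for cdh5 against skin (adjusted p = 0.0488 and 0.0326), and -2.19 for kdrl and -2.55 for cdh5 against muscle (adjusted p = 0.0171 and 0.00870). With the block kdrl did not pass against skin (-1.57, edgeR adjusted p = 0.0573). Of 21 endothelial genes 2 were called lower and 3 higher in whole fish than in skin, and 3 lower and 3 higher than in muscle.

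The paralog fabp10b did not follow fabp10a. It stood at 20.1, 27.1 and 10.2 CPM in the whole fish pulldowns, against 4.28, 11.1 and 7.47 CPM in the inputs, a log2 fold change of 1.33 (SE 0.61, edgeR adjusted p = 0.173 for enrichment) that did not pass. In skin it was at 16.7, 2.04 and 4.995 CPM in the pulldowns, against 1.70, 0.484 and 0.401 CPM in the inputs, and it was called enriched, at 3.27 (SE 0.78, edgeR adjusted p = 0.00407). In muscle it was also called enriched, at 2.26 (SE 0.71, edgeR adjusted p = 0.0194), with 32.1, 12.5 and 3.79 CPM in the pulldowns, against 5.39, 3.39 and 1.22 CPM in the inputs. The muscle groups overlapped, and the call there was lost without pulldown replicate 1 (1.32, adjusted p = 0.105) or input replicate 3 (1.87, adjusted p = 0.0581) and in 1 joint fit of all 18 libraries (2.18, adjusted p = 0.0643). The paralog is not one of the 10 genes, and reads shared between the copies could not be separated.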

How the data were processed

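TRAP-RNAseq libraries of adult AngioTag whole fish, skin and muscle were analysed from the count table. The authors trimmed reads of non-directional SMART-seq V4 libraries by cutadapt, mapped them with hisat2 to GRCz11 in lcdb-wf, using Ensembl genes, and deposited raw counts per gene; the counting program is not given in the sources used here. Without strand information, reads of overlapping genes on opposite strands cannot be told apart. Of 36 columns, 18 were used. The other 18 belong to liver, heart and brain, and their names do not say which organ. The columns of skin replicate 2 were given to skin because no other pair was left. Of 32520 genes, 3526 had no count.

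The members and lists were chosen with earlier results of these data known. Of 190 listed symbols 146 matched 1 identifier, and 2 with several identifiers were left out. Counts were tested with edgeR 4.0.16 in R 4.3.3: the expression filter, TMM scaling and the quasi-likelihood test, one-sided per direction for pulldown over input within a tissue and two-sided elsewhere, with Benjamini-Hochberg adjustment over all tested genes. TMM takes most genes to be unchanged. Under library size alone the median change of all genes moved on the log2 scale to -1.01 in whole fish. Calls needed an adjusted p-value under 0.05 and, except for interactions, a log2 fold change of at least 1.2. The SE given with an edgeR value was derived from its test, as the size of the log2 value divided by the square root of the F statistic. P-values measure the spread between 3 pools. The edgeR fits were run on simulated counts with less spread between replicates than whole fish pulldown and input had. Those counts also had no shift in composition, so the run does not show how the whole fish fit behaves. DESeq2 1.42.0, other scalings and filters, a replicate block and each library left out were the alternatives. Intervals are exact, at 95%, and cover counting error only; a floor of 3 counts stands for 0. Replicates differed by more than counting noise (chi-square per gene 27.3 to 326).

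The replicate numbers pair pulldown and input: deviations from the group means of same-numbered libraries correlated across genes at 0.16 to 0.20 in whole fish, 0.45 to 0.47 in skin and 0.43 to 0.48 in muscle, and those of different numbers at -0.31 to -0.08. Deviations from a group mean cancel within the group, so the negative values follow from the positive ones and are no separate evidence of pairing. Genes are not independent replicates.

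The text names the 10 members, the paralogs serpina1l, ahsg2 and fabp10b, and kdrl and cdh5. It also names up to 2 genes per list and direction with the largest called change and a mean of at least 100 counts, the 8 genes most alike in pattern, and the most abundant gene. The other list genes named (c8a, cp, cps1, serpinf2b, kng1, shbg, hamp, foxa2, fah, myhz2, vtg5, vil1, alas2, tpma, ckmb, anxa1c, krt4 and the c3a copies) were chosen after their values were seen.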

Additional observations from a re-analysis of the deposited data

Results flagged for a closer look

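For 3 genes the pulldown over input difference was called different between whole fish and skin. Of these fabp10a and serpina1 had too few counts in skin to be tested there and entered the fit through the whole fish libraries, so their values are a description. The log2 difference of the ratios, whole fish minus skin, was -4.19 for fabp10a, -2.97 for fgb and -5.98 for serpina1 (edgeR adjusted p = 0.00557, 0.0314 and 0.00562). The pooled pulldown to input ratio in skin was 2.08 for fabp10a (95% counting interval 0.929 to 4.98), 1.94 for fgb (1.22 to 3.13) and 8.32 for serpina1 (1.12 to 369), on at most 56 counts a group. Leaving out 1 library at a time, the difference ran from -4.79 to -3.35 for fabp10a, from -3.56 to -2.53 for fgb and from -7.62 to -5.19 for serpina1. Groups of 3 libraries are too small for a search for outlying samples.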

How the results depend on the processing

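In whole fish none of the 10 genes was enriched under any alternative, and 8 to 10 were depleted under each that kept all libraries: 10 with library size alone (median -3.85), the replicate block, DESeq2 with the block and 1 joint fit, 9 with DESeq2 and 9 of 9 tested with at least 10 counts in every library, which dropped ttr. Leaving out 1 library gave 6 to 9, the 6 without input replicate 2, with medians of -3.68 to -2.63. Over all genes, 2615 were depleted, but 4051 with library size alone, 909 with the block, 4933 with DESeq2, 5353 with both, 1079 with the count minimum, 6889 in the joint fit and 1548 to 4725 without 1 library; 1916 were enriched, but 589 with library size alone and 792 to 2393 without 1 library. Enriched genes were 42.3% of calls, 12.7% with library size alone and 47.5% without the most abundant gene in the library size. Among the 10 genes, their paralogs and the list genes named by rule, the block changed the calls of fga, fgb, ahsg2 and rhag in pulldown over input.

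In skin and muscle counts are the limit. In skin 1 gene was enriched with library size alone (median 1.79), where 7085 of 17153 genes were, or without the most abundant gene in it (1.73), where 6851 were. Another 1, apoa2, was depleted with no filter (median 0.31), where 3666 of 26972 genes were, or DESeq2 (0.25), where 3455 were. The median of the 10 genes was 0.11 with DESeq2 and the block, 0.34 in the joint fit and 0.54 to 1.55 without 1 library. In muscle 1 was enriched with library size alone (median 0.85) or without the most abundant gene (0.79), where fabp10a turned to 1.42 and 1.39. Of all 14849 genes tested there, 9244 and 9103 were enriched under these settings. With DESeq2 and the block 1, ahsg1, was depleted, where 3872 of 26237 genes were. The median of the 10 genes was -1.2 to 0.07 without 1 library. None of the 10 genes had 10 counts in every skin or muscle library, so that setting gave no value for them there.

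For whole fish over organ inputs the median was 12.6 to 14.4 in skin without 1 library, and 13.0 in muscle with library size alone (11.6 to 12.6 without 1 library). All 10 stayed called, which is a description, as they entered that fit through the whole fish libraries. For the interaction with skin, 6 were lower with library size alone (median -4.93) and 2 to 5 without 1 library, the 5 without whole fish pulldown replicate 1. For that with muscle, 7 were lower with library size alone (median -5.08), 2 with the block, 1 with DESeq2 (median -2.28) and 0 to 2 without 1 library (medians -4.30 to -1.73). Library size alone moved the whole table, with 7232 of 20173 genes lower than in skin and 8622 of 18566 lower than in muscle. Its median of all genes was -2.11 for skin and -2.79 for muscle. Over all genes, 1250 were lower than in muscle with the block and 2953 of 28099 with DESeq2. Without 1 library 2344 to 5824 genes were lower than in skin and 1372 to 4048 lower than in muscle. The cause of these shifts was not tested.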
